A study of Mus musculus with 7 samples.

Results

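The genes described are 7 transcripts of B cells and antibody-secreting plasma cells: Tnfrsf17, Derl3, Fkbp11, Mzb1, Cd79a, Cd79b and Pou2af1. They were chosen by name, and all 7 were among the 22987 genes of the deposited table. The tissue was material scraped with a slide from the opened, rinsed duodenum of C57BL/6 mice aged 6 weeks. The mice were either Nlrc4-T337S, with that amino acid change in the inflammasome protein Nlrc4 and written as homozygous in the series title (4 libraries), or wild type (3 libraries). No other allele or treatment is given for either group. The labels number no replicates, so the numbers used here follow the order of submission within each genotype, only name a library and pair none across genotypes. Nothing in the labels says whether each library came from 1 animal or how the change was made, so p-values refer to the spread among the libraries alone, which may be technical.

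Although the samples are labelled as epithelium, a scraping can bring along cells of the lamina propria, the connective tissue below it. Epithelial markers were abundant, with Epcam at 646 to 842 RPKM (reads relative to the length of the gene and the mapped reads of the library) and Vil1 at 668 to 887 RPKM over the 7 libraries. Ptprc, the pan-leukocyte gene that encodes CD45, was present at 7.20 to 12.1 RPKM. Libraries had 45032119 to 95732587 quality-passing reads, and 1 read in a gene of 1 kilobase was worth 0.0124 to 0.0251 RPKM.

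B cells sense antigen through a surface antibody held in a complex with the signalling chains CD79a and CD79b. On activation some become plasma cells, which give up most surface B cell proteins, enlarge their endoplasmic reticulum and secrete antibody. In the small intestine most plasma cells lie in the lamina propria and make IgA, which is joined by the J chain and carried through the epithelium by the polymeric immunoglobulin receptor. Organised follicles such as Peyer's patches hold many resting and germinal centre B cells, which carry Ms4a1 (CD20), Cr2 and Cxcr5.

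All 7 genes had a lower mean in Nlrc4-T337S than in wild type, and 1 of them, Fkbp11, passed the test over all genes. The test was limma on log2(RPKM + 0.5) over the 10987 genes with a mean of at least 0.5 RPKM, with Benjamini-Hochberg adjustment and a threshold of 0.05. Over those genes 0.592% were called lower and 78% had a log2 difference below 0. An unadjusted limma p under 0.05 was found for 2441 of the 10987. The counts of unadjusted p given below for gene lists stand beside that share. The 7 differences ran from -1.88 to -0.82 with a median of -1.17, beside a median of -0.15 over all tested genes. With median-of-ratios scaling the median of all tested genes was 0.0094 and the 7 differences ran from -1.73 to -0.68, and with quantile normalization it was 0.025 and they ran from -1.69 to -0.60. Groups did not overlap for 4 of the 7, namely Tnfrsf17, Derl3, Fkbp11 and Mzb1, while 17.3% of all tested genes were lower without overlap. Groups overlapped for Cd79a, Cd79b and Pou2af1. In a bulk sample, fewer cells of a type and less RNA per cell cannot be told apart.

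**Figure D1:**
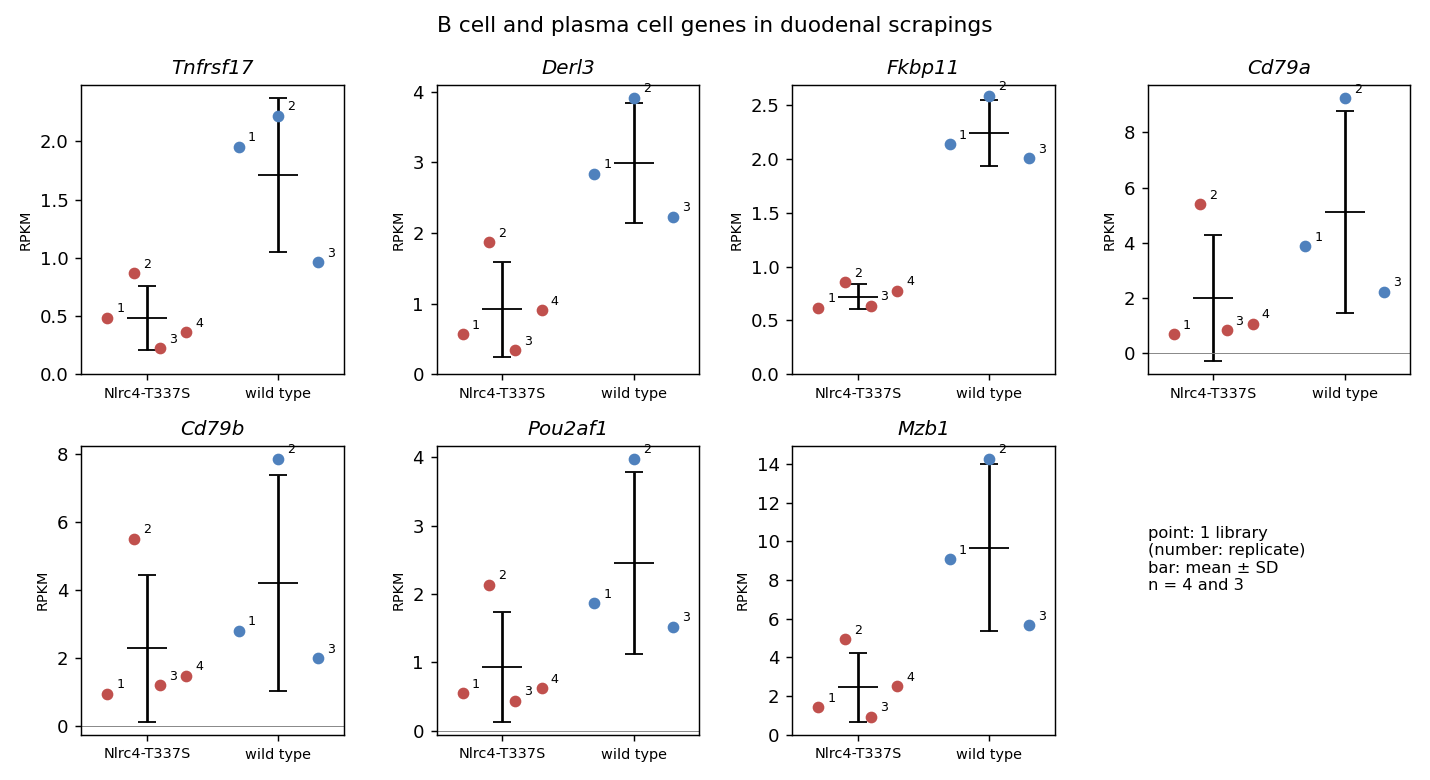
RPKM of each gene (y axis) in every library, with Nlrc4-T337S left of wild type; points are libraries with their replicate number, and bars are mean ± SD (n = 4 and 3). Fkbp11 lies at 0.616 to 0.855 RPKM in Nlrc4-T337S and at 2.01 to 2.59 RPKM in wild type, while replicate 2 of each genotype is the highest of its group in all 7 panels.

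Fkbp11 encodes a peptidyl-prolyl isomerase of the endoplasmic reticulum, made strongly by secretory cells, plasma cells among them. It lies on chromosome 15 from 98554804 to 98558629 on the minus strand (mm9, GENCODE M1). It measured 0.616, 0.855, 0.636 and 0.775 RPKM in Nlrc4-T337S replicates 1 to 4, against 2.14, 2.59 and 2.01 RPKM in wild-type replicates 1 to 3. Every Nlrc4-T337S library was below every wild-type library, and the spread within each genotype was small beside the gap. The means were 0.720 ± 0.114 RPKM in Nlrc4-T337S (SD, n = 4) and 2.25 ± 0.306 RPKM in wild type (SD, n = 3), 67.9% lower. The log2 difference was -1.17 (SE 0.13, 95% interval -1.45 to -0.88), with a limma adjusted p of 0.00679, the 10th smallest p of all tested genes. Without wild-type replicate 1 or wild-type replicate 2 the call was lost, with limma adjusted p of 0.0521 and 0.0566 at log2 differences of -1.19 and -1.08.

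Derl3 encodes a derlin, a membrane protein that helps move misfolded proteins out of the endoplasmic reticulum for degradation (chromosome 10, 75356143 to 75358686, plus strand, mm9). It measured 0.569, 1.86, 0.340 and 0.903 RPKM in Nlrc4-T337S replicates 1 to 4, against 2.84, 3.91 and 2.23 RPKM in wild-type replicates 1 to 3. The groups did not overlap, and the gap between Nlrc4-T337S replicate 2 and wild-type replicate 3 was small. The log2 difference was -1.38 (SE 0.33), short of the threshold (limma adjusted p = 0.0950). Its ubiquitous relatives Derl1 and Derl2, chosen after their values were seen, were not called either.

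The promoters of Fkbp11, as the called gene, and of Derl3 and Pou2af1 are shown because Xbp1 and Atf6, which drive the secretory programme of plasma cells, bind elements built on ACGTG and CCACG, and because Pou2af1 acts as a coactivator at the octamer ATTTGCAT. Each run is the 250 bases before the RefSeq start site, 5' to 3' on the gene's strand in build GRCm38.p6, with matches to ACGTG or CCACG on either strand in capitals; these motifs can overlap.
Fkbp11, chr15:98727628-98727877, minus strand: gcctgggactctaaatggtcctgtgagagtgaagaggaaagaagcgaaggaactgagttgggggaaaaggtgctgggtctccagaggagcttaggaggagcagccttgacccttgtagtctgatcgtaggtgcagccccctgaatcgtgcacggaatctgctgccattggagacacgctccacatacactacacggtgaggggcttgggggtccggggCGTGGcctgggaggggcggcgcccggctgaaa
Derl3, chr10:75893148-75893397, plus strand: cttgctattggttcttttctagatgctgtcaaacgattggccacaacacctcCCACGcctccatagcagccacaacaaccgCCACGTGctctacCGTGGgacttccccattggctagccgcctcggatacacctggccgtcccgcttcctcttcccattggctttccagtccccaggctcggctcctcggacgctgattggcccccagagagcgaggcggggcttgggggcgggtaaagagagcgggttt
Pou2af1, chr9:51213440-51213689, plus strand: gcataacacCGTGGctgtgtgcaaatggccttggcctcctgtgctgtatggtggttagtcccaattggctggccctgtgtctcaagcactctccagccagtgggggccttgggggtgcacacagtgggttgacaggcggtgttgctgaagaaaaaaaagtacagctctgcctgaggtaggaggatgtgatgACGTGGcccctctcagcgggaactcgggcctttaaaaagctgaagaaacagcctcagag
Derl3 holds CCACG at 198 and 169 bases before its start, the second running into ACGTG at 167 bases before it, and the reverse CGTGG at 156 bases before it. In the upstream 250 bases of Fkbp11 there is 1 match, CGTGG at 32 bases before this start, and none before a second RefSeq start of that gene. Past the printed bases, overlapping matches lie close to this start, with CACGT at 0 and 20 bases from it, ACGTG at 21 and CGTGG at 22. In Pou2af1 ACGTG lies 59 bases before the start and overlaps CGTGG at 58 bases, and CGTGG also lies 241 bases before it. Past the printed bases Pou2af1 holds CCACG at 12 bases from its start, while Derl3, Cd79a and Tnfrsf17 hold no match there. Over 27025 genes with a promoter, 18.5% held ACGTG and 31.0% held CCACG in these 250 bases on either strand, so single matches are common. Over the whole 300-base windows the shares were 21.8% and 35.5%. Of the other members whose RefSeq window was searched, Tnfrsf17 held neither ACGTG nor CCACG in its upstream 250 bases. Cd79a held CCACG once, 194 bases before its start. The octamer was in none of the 300-base windows of Cd79a, Derl3, Fkbp11, Pou2af1 and Tnfrsf17, and in 1.97% of all genes. A match is a run of letters, not a measured binding site.

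Tnfrsf17 encodes BCMA, the receptor for the survival factors APRIL and BAFF on plasma cells (chromosome 16, 11313905 to 11320167, plus strand, mm9). It measured 0.486, 0.868, 0.224 and 0.361 RPKM in Nlrc4-T337S replicates 1 to 4, against 1.96, 2.22 and 0.963 RPKM in wild-type replicates 1 to 3. The highest Nlrc4-T337S library, replicate 2, lay just below the lowest wild-type library, replicate 3. The log2 difference was -1.16 (SE 0.26, 95% interval -1.76 to -0.56), which did not pass (limma adjusted p = 0.0876). It was called without wild-type replicate 3 (log2 difference -1.43, limma adjusted p = 0.0449) and without Nlrc4-T337S replicate 2 (-1.33, limma adjusted p = 0.0128).

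The ligands of this receptor showed no called difference. Tnfsf13b, encoding BAFF, averaged 8.72 ± 1.61 RPKM in Nlrc4-T337S and 6.74 ± 0.908 RPKM in wild type (SD, n = 4 and 3; limma adjusted p = 0.224). Tnfsf13, encoding APRIL and chosen after its values were seen, averaged 17.9 ± 1.98 RPKM in Nlrc4-T337S and 18.2 ± 2.23 RPKM in wild type (limma adjusted p = 0.937). Pigr, which carries IgA across the epithelium and was also chosen after its values were seen, stood at 1347, 1065, 1797 and 1351 RPKM in Nlrc4-T337S replicates 1 to 4, against 1187, 1421 and 1927 RPKM in wild-type replicates 1 to 3, with overlapping groups. In the list of survival, homing and IgA transport genes, 0 of 10 tested genes other than Tnfrsf17 were called and 2 had an unadjusted limma p under 0.05, with a median log2 difference of -0.16. By smallest p the list was led by Ccr10, the receptor that guides IgA plasma cells to mucosae, at 0.333 ± 0.281 RPKM in Nlrc4-T337S and 0.839 ± 0.216 RPKM in wild type (limma adjusted p = 0.154).

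Mzb1 encodes a chaperone of the endoplasmic reticulum that aids antibody assembly and secretion (chromosome 18, 35806920 to 35809021, minus strand, mm9, under its RefSeq synonym). By its mean RPKM it was the most abundant of the 7 in both genotypes. In single libraries Cd79a and Cd79b exceeded it in Nlrc4-T337S replicate 2, and Cd79b did in Nlrc4-T337S replicate 3. It measured 1.44, 4.94, 0.947 and 2.52 RPKM in Nlrc4-T337S replicates 1 to 4, against 9.08, 14.3 and 5.67 RPKM in wild-type replicates 1 to 3. Groups did not overlap, although Nlrc4-T337S replicate 2 came close to wild-type replicate 3. The log2 difference, -1.88 (SE 0.44), was the largest of the 7 and did not pass (limma adjusted p = 0.0956). Jchain, which encodes the J chain of IgA and IgM and was chosen after its values were seen, had nearly the same order of libraries at a much higher level, with Nlrc4-T337S replicate 2 and wild-type replicate 3 exchanged. It measured 84.0, 233, 43.9 and 118 RPKM in Nlrc4-T337S replicates 1 to 4, against 383, 604 and 228 RPKM in wild-type replicates 1 to 3 (log2 difference -1.89, limma adjusted p = 0.117).

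Cd79a and Cd79b encode the paired signalling chains of the B cell receptor. Cd79a (chromosome 7, 25682400 to 25687216, plus strand, mm9) measured 0.683, 5.40, 0.832 and 1.07 RPKM in Nlrc4-T337S replicates 1 to 4, against 3.88, 9.24 and 2.23 RPKM in wild-type replicates 1 to 3. Cd79b (chromosome 11, 106172655 to 106176076, minus strand, mm9) measured 0.938, 5.50, 1.19 and 1.47 RPKM in Nlrc4-T337S replicates 1 to 4, against 2.79, 7.85 and 1.98 RPKM in wild-type replicates 1 to 3. In both genes Nlrc4-T337S replicate 2 stood above wild-type replicates 1 and 3, so the genotypes overlapped. The log2 differences of -1.32 (SE 0.59) and -0.82 (SE 0.54) were not called (limma adjusted p = 0.233 and 0.394), and the 95% intervals, -2.67 to 0.03 for Cd79a and -2.05 to 0.41 for Cd79b, allow a wide range. Without Nlrc4-T337S replicate 2 Cd79a was called at -1.85 (limma adjusted p = 0.0226), while Cd79b was not.

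Pou2af1 encodes the coactivator of Oct factors, needed for germinal centres and antibody responses (chromosome 9, 51021795 to 51048184, plus strand, mm9). It measured 0.547, 2.14, 0.441 and 0.623 RPKM in Nlrc4-T337S replicates 1 to 4, against 1.87, 3.98 and 1.52 RPKM in wild-type replicates 1 to 3. As with the receptor chains, Nlrc4-T337S replicate 2 lay within the wild-type range and the other 3 lay below it. The log2 difference was -1.09 (SE 0.39), with a limma adjusted p of 0.166; without Nlrc4-T337S replicate 2 it was called at -1.43 (limma adjusted p = 0.0158).

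**Figure D2:**
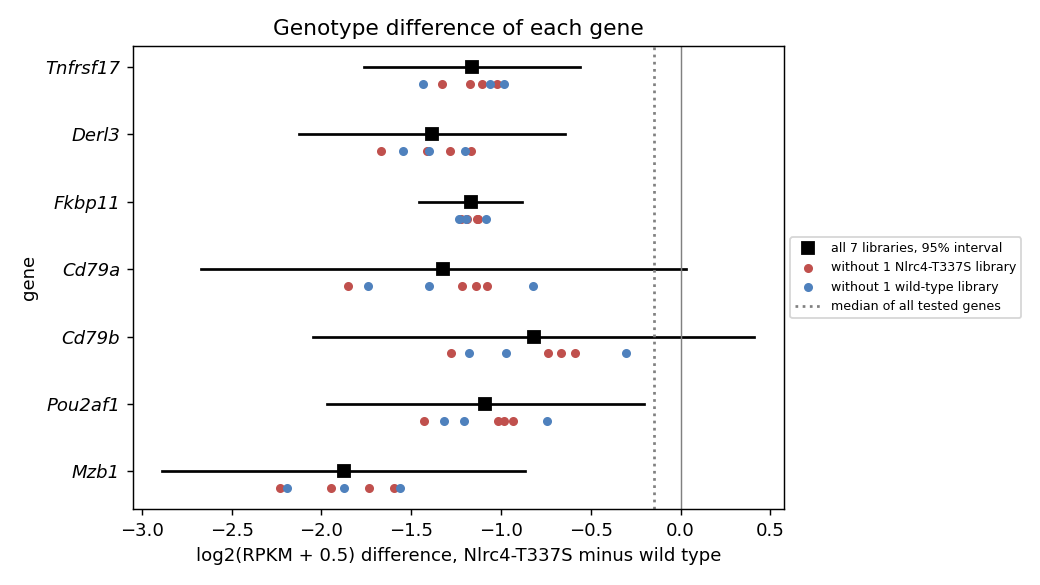
Log2(RPKM + 0.5) difference, Nlrc4-T337S minus wild type (x axis), for each gene (y axis); squares and lines are the value and 95% interval over 7 libraries, and small points are the values with 1 library left out. All points lie below 0 and below the dotted median of all tested genes at -0.15; Fkbp11 has the narrowest interval, -1.45 to -0.88.

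Replicate 2 of each genotype stood out most for the receptor chains. Wild-type replicate 2 was the highest library for 7 of 7 genes and Nlrc4-T337S replicate 2 the highest of its genotype for 7 of 7. Of the 20996 genes above 0 in at least 1 library, 16% had replicate 2 highest within both genotypes. Wild-type replicate 3 was the lowest wild-type library for 7 of 7, an order whose share over all genes was not determined. The excess of Nlrc4-T337S replicate 2 over the next Nlrc4-T337S library was 5.06-fold for Cd79a, 3.74-fold for Cd79b and 3.43-fold for Pou2af1, but 2.06-fold for Derl3, 1.96-fold for Mzb1, 1.79-fold for Tnfrsf17 and 1.10-fold for Fkbp11. Without Nlrc4-T337S replicate 2, 6 of the 7 genes were called lower, where 11.7% of all tested genes were. Without wild-type replicate 1 or wild-type replicate 2, 0 of the 7 were called, where 0.0274% and 0.0367% of all tested genes were, and without wild-type replicate 3, 2 of the 7 were, where 0.593% were.

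The same pair of libraries carried nearly all of the signal of Ms4a1, the gene of the B cell surface protein CD20. Ms4a1 measured 0.0284, 1.77, 0.164 and 0.0634 RPKM in Nlrc4-T337S replicates 1 to 4, against 0.0490, 2.29 and 0.0422 RPKM in wild-type replicates 1 to 3. It was high in 1 library of each genotype and low elsewhere, and it was chosen after its values were seen. Cxcl13, the follicle chemokine that attracts B cells, chosen in the same way, was at 0.996 RPKM in Nlrc4-T337S replicate 2 and 1.03 RPKM in wild-type replicate 2, and at most 0.0976 RPKM in any other library. Of the 16 listed germinal centre and follicle genes, Cxcl13 included, 12 had replicate 2 as the highest library within both genotypes. Bcl6, Gcsam, Rgs13 and Ccl20 did not, and Bcl6 was lowest of its genotype in Nlrc4-T337S replicate 2. All but Ccl20 were named after their values were seen. Of 26 listed B cell genes other than Ms4a1 and the described genes, 24 had replicate 2 as the highest library within both genotypes, a pattern found in 16% of the 20996 genes above 0 in at least 1 library; the other 2 were Blnk and, named after its values were seen, Ikzf3. In 10 of the 26, every library other than the pair was under 25% of the highest library.

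**Figure D3:**
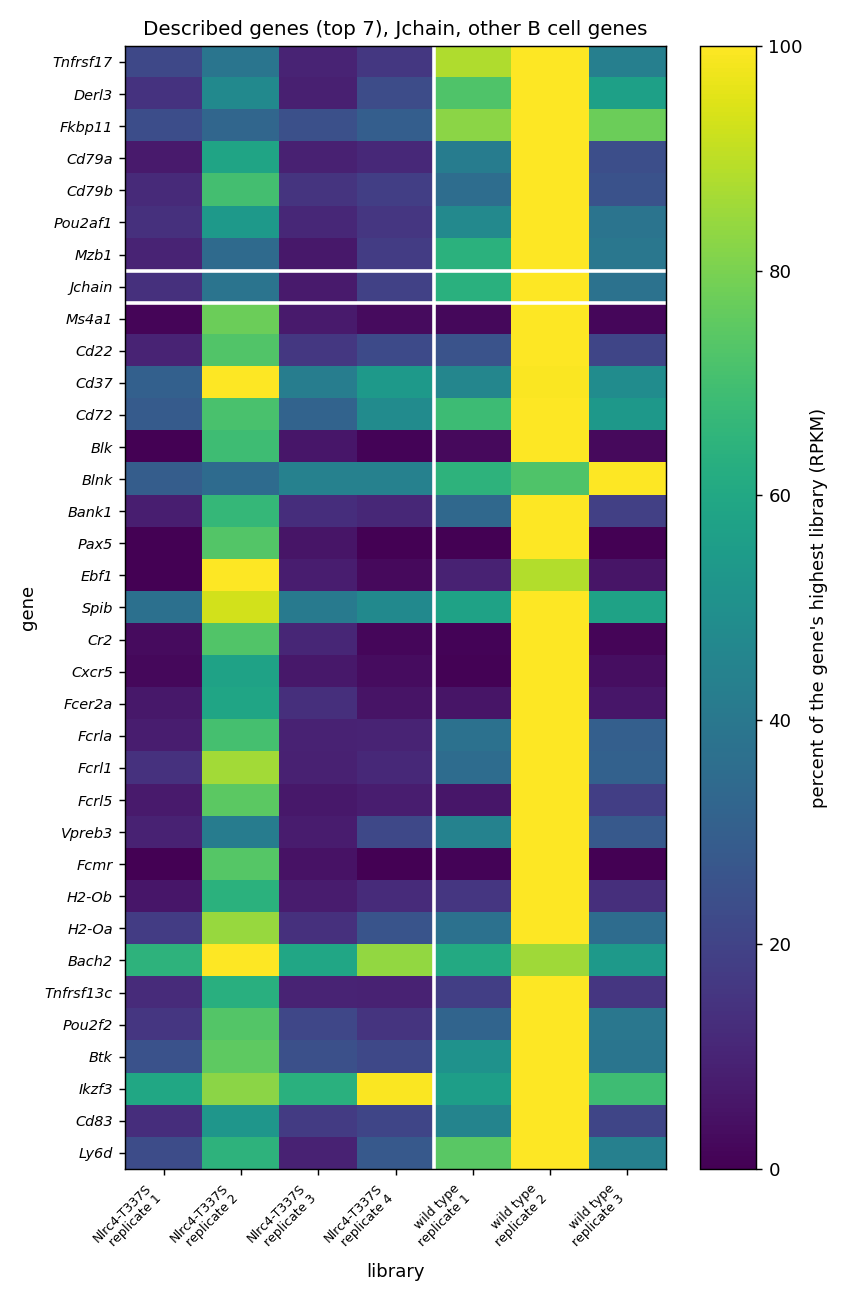
Level of each gene (y axis) in every library (x axis, Nlrc4-T337S left of wild type) as a percent of that gene's highest library, for the 7 described genes, Jchain and 27 other listed B cell genes. Ms4a1 and Cr2, both chosen after their values were seen, are bright only in replicate 2 of both genotypes, whereas Fkbp11 is at 77.5% or more and Derl3 at 57.0% or more in every wild-type library.

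Leaving out replicate 2 of both genotypes, an alternative chosen after seeing the data, put the remaining libraries at low Ms4a1, and 5 of the 7 genes were then called lower, where 3.47% of all tested genes were. The log2 differences were -1.92 for Mzb1, -1.48 for Derl3, -1.35 for Cd79a, -1.13 for Fkbp11 and -1.08 for Pou2af1, with limma adjusted p of 0.0317, 0.0255, 0.0315, 0.0199 and 0.0208. Tnfrsf17, at -1.16, and Cd79b, at -0.76, were not called (limma adjusted p = 0.0559 and 0.0817). With 3 Nlrc4-T337S and 2 wild-type libraries left, this fit rests on few samples. The libraries left out were the highest of their genotype for all 7 genes, so the choice also changed the spread within groups. The SE of Cd79a was 0.23 in this fit and 0.59 over all libraries, while that of Fkbp11 was 0.14 and 0.13. These calls are therefore no separate support. Between the 2 libraries with high Ms4a1, the ratio of Nlrc4-T337S to wild type was 0.330 for Fkbp11, 0.347 for Mzb1, 0.390 for Tnfrsf17, 0.477 for Derl3, 0.537 for Pou2af1, 0.585 for Cd79a, 0.701 for Cd79b and 0.775 for Ms4a1, values of 1 library each with no test.

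Ratios of RPKM within a library asked whether plasma cell and receptor genes moved in step, by two-sided exact permutation over 35 assignments, where the smallest possible p is 0.0286, with adjustment over 6 ratios. Cd79a over Cd79b was 0.728, 0.983, 0.698 and 0.727 in Nlrc4-T337S replicates 1 to 4, against 1.39, 1.18 and 1.13 in wild-type replicates 1 to 3. The groups did not overlap, and Cd79a had the lower RPKM of the pair in each Nlrc4-T337S library and the higher in each wild-type library. The gene lengths behind these RPKM are not given, so a ratio near 1 does not settle which transcript was scarcer. The chains themselves were not measured. The log2 difference of this ratio was -0.66, exact permutation p = 0.0571, adjusted p = 0.343, which did not pass. With so few libraries, 1 ratio alone could not pass after adjustment over 6, so this outcome decides nothing. The ratios of Tnfrsf17, Derl3, Fkbp11, Mzb1 and Pou2af1 to Cd79a overlapped between genotypes, and their adjusted exact permutation p values were 0.891 to 1. Nlrc4-T337S replicate 2 had the lowest value of all 7 libraries in each of those 5 ratios, for example 0.158 for Fkbp11 over Cd79a against 0.725 to 0.901 in the other Nlrc4-T337S libraries.

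**Figure D4:**
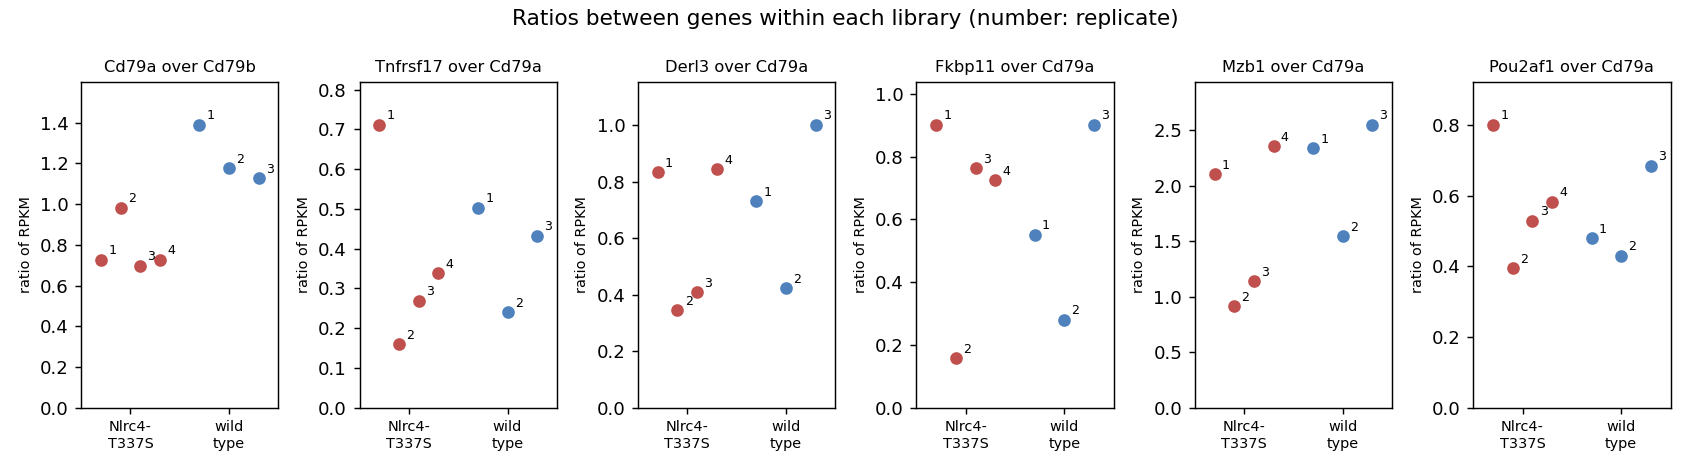
Ratio of RPKM between pairs of genes (y axis) in every library, Nlrc4-T337S left of wild type, points numbered by replicate. Cd79a over Cd79b separates the genotypes, at 0.698 to 0.983 in Nlrc4-T337S and 1.13 to 1.39 in wild type; the other 5 ratios overlap and are lowest in Nlrc4-T337S replicate 2.

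Of 16 tested plasma cell genes beyond the 5 described here, 0 were called. A log2 difference below 0 was found for 12, beside 78% of all tested genes, and the median was -0.27. Limma gave 8 of the 16 an unadjusted p under 0.05, as it did 2441 of the 10987 tested genes. Txndc5, a disulfide isomerase of the endoplasmic reticulum, averaged 24.9 ± 3.81 RPKM in Nlrc4-T337S and 39.3 ± 3.08 RPKM in wild type (log2 difference -0.65, limma adjusted p = 0.0588). Eaf2, an elongation factor partner, averaged 4.74 ± 0.959 RPKM in Nlrc4-T337S and 2.70 ± 0.306 RPKM in wild type, the opposite direction (limma adjusted p = 0.0876). Xbp1, Prdm1 and Sdc1, used widely as plasma cell genes but also made by gut epithelium, had log2 differences of -0.24, -0.01 and -0.31 and were chosen after their values were seen.

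Of 30 genes for folding and the unfolded protein response in the endoplasmic reticulum, 0 were called, 5 had an unadjusted limma p under 0.05 and the median log2 difference was -0.12, near that of all genes. Pdia4, a disulfide isomerase, had the smallest p there, at 18.0 ± 2.61 RPKM in Nlrc4-T337S and 25.8 ± 1.12 RPKM in wild type (limma adjusted p = 0.0876), followed by Sec61a1, the translocation channel, at 40.8 ± 1.72 RPKM in Nlrc4-T337S and 51.4 ± 4.69 RPKM in wild type (limma adjusted p = 0.127). Among 8 tested relatives of the described genes 0 were called and 1 had an unadjusted limma p under 0.05. Fkbp7, another FKBP isomerase of the endoplasmic reticulum, was at 0.356 ± 0.0928 RPKM in Nlrc4-T337S and 0.786 ± 0.212 RPKM in wild type (limma adjusted p = 0.109), and Fkbp4 was at 30.3 ± 8.01 RPKM in Nlrc4-T337S and 39.8 ± 5.14 RPKM in wild type (limma adjusted p = 0.233).

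Among 14 other tested B cell genes 0 were called and 4 had an unadjusted limma p under 0.05, beside 2441 of the 10987 tested genes. A log2 difference below 0 was found for 13 of the 14, beside 78% of all tested genes, and their median was -0.49. Blnk, the adaptor that links the B cell receptor to its downstream enzymes, came nearest, at 5.60 ± 1.05 RPKM in Nlrc4-T337S and 11.6 ± 2.74 RPKM in wild type (log2 difference -0.98, limma adjusted p = 0.0503). Its libraries did not follow Ms4a1, with the highest value, 14.7 RPKM, in wild-type replicate 3. Ly6d was next, at 2.51 ± 1.88 RPKM in Nlrc4-T337S and 5.79 ± 2.26 RPKM in wild type (limma adjusted p = 0.180). Of 19 other tested B cell receptor signalling genes 0 were called and 3 had an unadjusted limma p under 0.05, with a median of -0.23; the smallest p after Blnk was that of Cd81, a tetraspanin that many cells make, at 53.7 ± 3.55 RPKM in Nlrc4-T337S and 65.5 ± 3.12 RPKM in wild type (limma adjusted p = 0.152). Of 5 tested germinal centre and follicle genes 0 were called and 2 had an unadjusted limma p under 0.05, with Tnfaip2 at 0.461 ± 0.237 RPKM in Nlrc4-T337S and 0.873 ± 0.247 RPKM in wild type (limma adjusted p = 0.191). Ccl20, a chemokine of follicle epithelium, was at 4.90 ± 3.24 RPKM in Nlrc4-T337S and 8.96 ± 2.60 RPKM in wild type (limma adjusted p = 0.204).

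Markers of other cells of the lamina propria also had lower levels in most Nlrc4-T337S libraries. Of 14 tested macrophage and dendritic cell genes 0 were called and 11 had an unadjusted limma p under 0.05. All 14 had a log2 difference below 0, with a median of -0.92. Their list summed to 35.6 to 132 RPKM in Nlrc4-T337S and 102 to 178 RPKM in wild type over 16 genes. Fibroblast and endothelium genes summed to 4.76 to 13.3 RPKM in Nlrc4-T337S and 13.3 to 28.4 RPKM in wild type over 13 genes. Of these, 2 of 6 tested were called lower, with a median log2 difference of -1.47. Vim, named after its values were seen, made up 34.9% to 70.9% of the fibroblast and endothelium sums. The groups overlapped slightly, with sums of 13.3066 RPKM in Nlrc4-T337S replicate 2 and 13.3055 RPKM in wild-type replicate 3. Smooth muscle genes summed to 1.89 to 5.07 RPKM in Nlrc4-T337S and 8.82 to 18.5 RPKM in wild type over 7 genes. Of these, 3 of 3 tested were called lower, with a median log2 difference of -1.98. Tagln made up 34.7% to 76.3% of the smooth muscle sums. No listed gene of these sets was at 0 in all libraries. In all 3 sets Nlrc4-T337S replicate 2 was the highest Nlrc4-T337S library, as it was for the 7 genes. The part of these cells in the differences of the 7 genes was not tested.

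The pattern was mixed among crypt, gland and other markers. Paneth cell genes summed to 166 to 839 RPKM in Nlrc4-T337S, highest in replicate 2, and to 1316 to 1979 RPKM in wild type. Of 14 tested, 3 were called lower and 14 had an unadjusted limma p under 0.05. Their median log2 difference was -2.63, beside -1.17 for the 7 described genes. Goblet cell genes summed to 6323 to 8627 RPKM in Nlrc4-T337S and 7991 to 10520 RPKM in wild type, with 0 of 9 called and 2 at an unadjusted limma p under 0.05. Zg16, which is also in the pancreatic acinar list, made up 59.0% to 62.1% of the goblet sums. Without it, a choice made after its values were seen, the other 18 pancreatic acinar genes summed to 14.9 to 19.1 RPKM in Nlrc4-T337S and 28.0 to 39.8 RPKM in wild type, without overlap. Of 4 tested acinar genes, Zg16 included, 2 were called lower. These secretory cells can also make Fkbp11 and Derl3, and their part in the result was not tested. Erythrocyte genes summed to 15.3 to 30.6 RPKM in Nlrc4-T337S and 50.6 to 81.3 RPKM in wild type. Of these, 3 of 4 tested were called lower, with a median log2 difference of -1.49. T cell and NK cell genes summed to 443 to 574 RPKM in Nlrc4-T337S and 357 to 416 RPKM in wild type, with Gzmb, a cytotoxic protease, the 1 called of 17, and higher. Their median log2 difference was 0.041, with 7 of the 17 below 0. Without Gzmb and the related Gzma, left out after their values were seen, the other 16 genes summed to 125 to 167 RPKM in Nlrc4-T337S and 115 to 141 RPKM in wild type, which overlapped. Sums of 15 enterocyte genes overlapped, at 36920 to 54025 RPKM in Nlrc4-T337S and 40976 to 52200 RPKM in wild type.

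**Figure D5:**
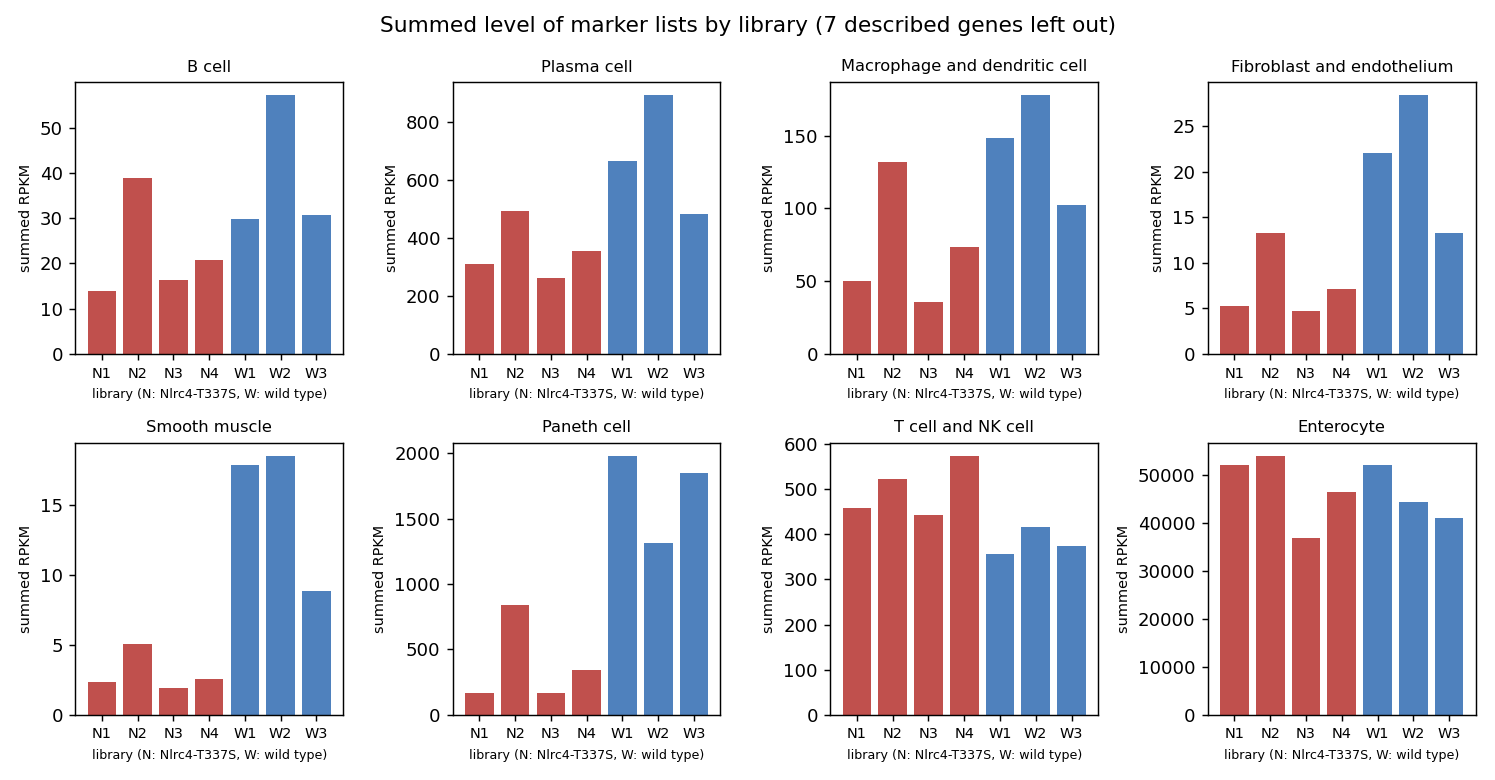
Summed RPKM of each marker list (y axis, from 0) in every library (x axis), Nlrc4-T337S left of wild type, with the 7 described genes left out of the sums. Fibroblast and endothelium genes, with Vim at 34.9% to 70.9% of the sum, reach at most 13.3 RPKM in Nlrc4-T337S and 28.4 RPKM in wild type. T cell and NK cell genes, mostly Gzma and Gzmb, reach 574 RPKM in Nlrc4-T337S and 416 RPKM in wild type.

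The genes whose pattern over the 7 libraries was most like the mean profile of the 7 were sought among 9213 others with a mean of at least 1 RPKM. They were Emp3, Fcgr3, Gng10, Eid1 and Pirb, with Pearson r of 0.992 to 0.998 and Spearman rho of 0.964 to 1, values that describe a ranking and carry no test. Fcgr3 encodes an antibody receptor and Pirb an inhibitory receptor of leukocytes. Fcgr3 measured 2.57, 5.38, 2.35 and 3.22 RPKM in Nlrc4-T337S replicates 1 to 4, against 6.03, 8.38 and 4.82 RPKM in wild-type replicates 1 to 3.

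The direction of all 7 differences was the same before and after a cut in the submitters' sample order. The labels give neither a meaning for that order nor a cut, and the cut after the first 4 libraries was set here. How many of all tested genes were below 0 in both parts was not determined, while 78% were over all 7 libraries. In the first 4 libraries, 2 of each genotype, the log2 differences ran from -1.87 for Mzb1 to -0.84 for Cd79b, and in the last 3, with 1 wild-type library, from -1.56 for Mzb1 to -0.44 for Cd79b. With the part, first 4 or last 3 libraries, as a term in the fit, Fkbp11 and Tnfrsf17 were called, where 0.956% of all tested genes were called lower. Their log2 differences were -1.15 and -1.05, with limma adjusted p of 0.00818 and 0.0241. With array weights 4 of the 7 were called, where 2.61% of all tested genes were called lower. At a threshold of 0.10, 4 of the 7 were called, where 2.28% were. With a filter at a mean of 2 RPKM, 3 of the 7 were tested and 0 called, where 0.348% were.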

How the data were processed

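RNA of duodenal scrapings was measured in 7 libraries, 4 Nlrc4-T337S and 3 wild type, each assigned from its genotype label. Per the labels' protocols, libraries were made with the Illumina TruSeq RNA kit from total RNA. Per the file headers, reads were mapped to mm9 with TopHat 2.1.0 and the authors computed RPKM in Partek 6.16.0606; the sources used here do not give the gene models. The deposited read counts per library and the deposited mapped fraction, 84.2% to 97.1%, gave the worth of 1 read. RPKM is not a count, so values were tested as log2(RPKM + 0.5) with limma 3.58.1 in R 4.3.3 (trend, no covariate, two-sided, Benjamini-Hochberg over 10987 genes with a mean of at least 0.5 RPKM). Differences are Nlrc4-T337S minus wild type and understate changes of low genes. The code was tested on simulated data. Ratios were tested by exact permutation.

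The 7 genes and the 16 gene lists were chosen with earlier results of these data known. Beyond the 7, the rule named up to 4 called genes of each list, or the 2 of smallest p, and the 5 most alike genes; others are marked as chosen later. Lists of other cell types are given as counts and sums, and some listed genes are not reported here. Alternatives were other pseudocounts, filters, scalings, array weights, a threshold of 0.10 and leaving out each library, plus 1 chosen after seeing the data. A further alternative was a term for the first 4 against the last 3 libraries in the submitters' order. Positions come from GENCODE M1 on NCBIM37, the mm9 build. Promoters come from RefSeq, and those of 5 of the 7 genes were searched. Cd79b had no window, and chromosome 18, where Mzb1 lies, was left out of that search. Plots used matplotlib 3.10.9 under Python 3.11.15.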

Additional observations from a re-analysis of the deposited data

Results flagged for a closer look

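Nlrc4-T337S replicate 2 stood far from the other 3 Nlrc4-T337S libraries for Cd79a, Cd79b and Pou2af1. It had 5.40 RPKM of Cd79a, where the others had at most 1.07, a gap of 0.918 of the whole range of the group. It had 5.50 RPKM of Cd79b, where the others had at most 1.47, a gap of 0.883 of the range. It had 2.14 RPKM of Pou2af1, where the others had at most 0.623, a gap of 0.893 of the range. These gaps exceeded Dixon's critical value at 95% confidence, a limit that chance passes in about 1 of 20 groups, and the 3 genes share their libraries. The other 4 genes had gaps of 0.332 to 0.631. The same library was the highest Nlrc4-T337S library for Ms4a1, at 1.77 RPKM; the part of B cells with Ms4a1 in these values was not tested.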

How the results depend on the processing

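Each of the 7 genes kept a negative difference under every alternative in which it was tested; with a mean of at least 2 RPKM only Cd79a, Cd79b and Mzb1 were. With each library left out in turn, the log2 differences ranged from -1.23 to -1.08 for Fkbp11, -1.43 to -0.98 for Tnfrsf17, -1.67 to -1.17 for Derl3, -2.23 to -1.56 for Mzb1, -1.85 to -0.82 for Cd79a, -1.28 to -0.30 for Cd79b and -1.43 to -0.74 for Pou2af1, and the number of the 7 called ranged from 0 to 6. Over all genes 98 were called, and 13 to 1354 with 1 library left out. Array weights called 348 genes, and 4 of the 7, with Tnfrsf17 at -1.21, Derl3 at -1.37 and Mzb1 at -1.86 newly past the threshold. The term for the first 4 against the last 3 libraries called 148 genes, and 2 of the 7, adding Tnfrsf17 at -1.05. Leaving out both libraries of highest Ms4a1 called 408 genes, and 5 of the 7, adding Cd79a at -1.35, Derl3 at -1.48, Mzb1 at -1.92 and Pou2af1 at -1.08. No filter called 32 genes, a mean of at least 2 RPKM 57 genes and 0 of the 3 tested, and a threshold of 0.10 called 312 genes and 4 of the 7. The calls split into 33 higher and 65 lower in Nlrc4-T337S, 71 higher and 65 lower with median-of-ratios scaling, and 73 higher and 60 lower with quantile normalization. Other pseudocounts, median-of-ratios scaling and quantile normalization left the called gene, Fkbp11, called. With 1 library left out, the log2 differences of uncalled ratios changed sign: Derl3 over Cd79a ranged from -0.61 to 0.013, Fkbp11 over Cd79a from -0.41 to 0.61 with reversals at -0.22, -0.14, -0.12 and -0.41, Pou2af1 over Cd79a from -0.072 to 0.30 with reversals at -0.072 and -0.037, and Tnfrsf17 over Cd79a from -0.61 to 0.10. The cause of these shifts was not tested. No paired analysis was possible because the labels give no replicate numbers, and those used here follow the order of submission. Levels near 0.02 RPKM rest on few reads.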

Other observations

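H2-Ob and H2-Oa encode the chains of H2-O, which tempers peptide loading of MHC class II molecules in B cells; both were chosen after their values were seen. H2-Ob measured 0.142, 1.48, 0.180 and 0.281 RPKM in Nlrc4-T337S replicates 1 to 4, against 0.368, 2.31 and 0.311 RPKM in wild-type replicates 1 to 3. H2-Oa ranged over 0.310 to 1.87 RPKM in Nlrc4-T337S and 0.781 to 2.22 RPKM in wild type. Both had replicate 2 as the highest library of each genotype, and neither was called (limma adjusted p = 0.604 and 0.459).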
